A study of Mus musculus with 4 samples.

Results

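The wound response of mouse skin that lacks the leukotriene receptor BLT2 was read from 2 of the 4 arrays of the study. The array of punched BLT2-deficient skin (BLT2KO_punched) was set against the array of unwounded BLT2-deficient skin (BLT2KO). A gene was taken as measured when its probe was detected, at a detection p-value under 0.01, on at least 1 of these 2 arrays. This left 10587 of the 19057 genes named on the array: 9511 were detected on both, 732 on BLT2KO_punched alone and 344 on BLT2KO alone.

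The study asked how loss of BLT2 bears on gene expression in skin while a wound heals. All mice had the C57Black6/J background. The 4 groups were BLT2KO_punched, skin of BLT2-deficient mice taken 2 days after punching; BLT2KO, skin of the same genotype without a wound; WT_punched, wild-type skin taken 2 days after punching; and WT, wild-type skin without a wound. Each group was a pool of RNA from 3 mice, taken as 5 mm punch biopsies of skin, and each pool was read on 1 Illumina MouseWG-6 array. The labels do not give the age and sex of the mice, the cells in which the receptor was lost, or where the biopsy of punched skin lay relative to the wound.

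BLT2 is encoded by Ltb4r2. It is a G protein-coupled receptor of the cell surface that binds leukotriene B4 weakly and the fatty acid 12-HHT strongly, and in skin it is known from keratinocytes. Leukotriene B4 itself draws neutrophils through the related receptor BLT1. In the first days after an injury, neutrophils and then monocytes enter skin, and keratinocytes at the edge leave their differentiation programme and migrate.

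With 1 array of a pool in each group, the spread between mice was not measured, no difference could be tested, and p-values are left out. Each ratio describes the arrays compared. The gene lists were chosen with earlier results of these data known, so their counts and medians are descriptions only. Some genes stand in more than 1 list. Levels are given on the log2 scale after background correction and quantile normalization, and a ratio is the level on BLT2KO_punched minus the level on BLT2KO, or its antilog as a fold. Where a gene was detected on 1 array only, its ratio was taken against the lowest level of a detected probe on the other array (5.10 on BLT2KO_punched and 5.20 on BLT2KO) and is given as "at least". Such a gene was measured only through the array where it is high, so the direction of its ratio was nearly fixed in every list. The part of the technical error that could be seen was the disagreement between probes of 1 gene on the same 2 arrays, with an SD of 0.26 on the log2 scale over 3100 genes, a factor of 1.20. Most of these genes had small ratios. Of 107 whose first probe passed 2-fold, the second probe had the same sign in 104 and passed 2-fold the same way in 56. Among the genes named below past 2-fold, another detected probe of Bmpr1a, Cd207, Col8a1, Gsdmd, Ifit3, Il1a, Itga5, Mrgpra2b and Wnt7b stayed under it. Bulk RNA cannot tell fewer cells of a type from less RNA per cell, and this holds for every cell type named below.

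Detected probes numbered 17201 of 45281 (38.0%) on BLT2KO_punched and 16551 (36.6%) on BLT2KO, against 16512 (36.5%) on WT_punched and 16383 (36.2%) on WT. Undetected probes had a median intensity of 89.3 on BLT2KO_punched and 63.9 on BLT2KO, so the background to be removed was higher on the punched array. The label of skin was checked against its markers. The basal keratins Krt14 and Krt5, the suprabasal keratins Krt10 and Krt1, the dermal collagens Col1a1 and Col3a1 and the endothelial Pecam1 were detected on all 4 arrays. Krt14 was at a log2 level of 14.26 on BLT2KO_punched and 14.37 on BLT2KO, and Krt10 at 14.45 on BLT2KO_punched and 14.59 on BLT2KO. The deleted gene Ltb4r2 had no named probe and was not analysed here. Its neighbour Ltb4r1, which encodes BLT1, was at 8.04 on BLT2KO_punched and 6.42 on BLT2KO (3.07-fold higher), against 10.63 on WT_punched and 10.24 on WT. Both BLT2KO arrays lay below both WT arrays for this gene.

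At 2-fold or more, 328 genes were higher in BLT2KO_punched skin and 181 were lower, which is 3.10% and 1.71% of the 10587 measured genes. The median log2 ratio of all measured genes was 0.00, and 8914 genes (84.2%) lay within 1.5-fold. The larger ratios lay on the higher side: 4-fold was passed upward by 77 genes and downward by 4, and 8-fold upward by 18 and downward by 1. Of the higher genes, 47 were detected only on BLT2KO_punched, and of the lower genes, 7 only on BLT2KO. The higher genes were 64.4% of all that passed 2-fold. This share was 76.7% without background correction (191 higher and 58 lower), 82.1% in the deposited processed values (220 higher and 48 lower) and 80.8% with median scaling (449 higher and 107 lower), which shifted the median of all genes by 0.16. Centred on that median, median scaling gave 63% (325 higher and 191 lower).

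The 328 higher genes had a median log2 level of 8.25 on BLT2KO_punched and 6.58 on BLT2KO. For the 181 lower genes the median was 6.77 on BLT2KO_punched and 8.02 on BLT2KO. Choice by the ratio favours a low level on BLT2KO for the higher genes and a high one for the lower genes. These medians are therefore a description only. Genes of mean log2 level between 6 and 8 held the largest share of calls, with 158 of 3455 higher (4.57%) and 90 lower (2.60%). Above a mean level of 12, 4 of 344 genes were higher and 2 lower. The plot of ratio against level shows where the named genes lie.

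**Figure D1:**
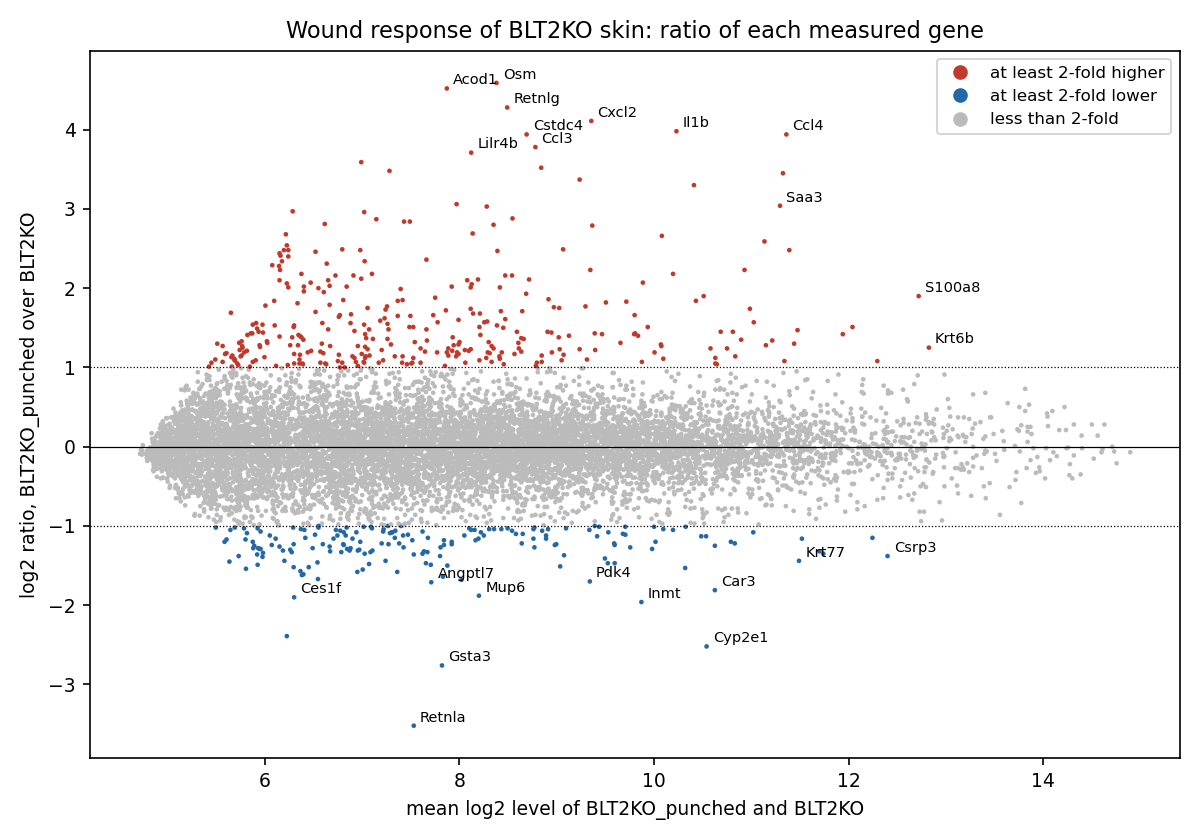
Log2 ratio of BLT2KO_punched over BLT2KO for each of the 10587 measured genes (vertical axis) against its mean log2 level on both arrays (horizontal axis), with dotted lines at 2-fold. The 328 genes at least 2-fold higher (red) reach a log2 ratio of 4.59 at Osm, and the 181 at least 2-fold lower (blue) reach -3.52 at Retnla.

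The promoters of higher genes are shown first where they held the letters of a motif, because the cytokine and interferon genes described below are textbook targets of the factors that bind it. The sequences are those of RefSeq for the build GRCm38.p6, which pairs each gene with 250 bases before and 50 bases after its start. Of the 509 genes past 2-fold, 389 had an entry. A motif was counted when it matched on either strand, and matches of the same motif on both strands or in overlapping positions were counted as 1 promoter. The kappaB motif, read by the NF-kB factors, was present in 28 of 251 promoters of higher genes (11.2%), in 8 of 138 of lower genes (5.80%), in 10.2% of the promoters of measured genes and in 8.46% of all 32851 promoters. The share among higher genes was therefore near that of measured genes. In the TNF and NF-kB feedback list it was 7 of 19 promoters (36.8%). A pair of neighbouring chemokine genes on chromosome 5, Cxcl2 (chr5:90903649-90903898, plus strand) and Cxcl1 (chr5:90890995-90891244, plus strand), held the same run of letters, in capitals, starting 97 and 71 bases before the start of the gene. The run is a pair of overlapping kappaB matches, 1 on each strand. Both sequences reach to the last base before the gene's start.

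Cxcl2: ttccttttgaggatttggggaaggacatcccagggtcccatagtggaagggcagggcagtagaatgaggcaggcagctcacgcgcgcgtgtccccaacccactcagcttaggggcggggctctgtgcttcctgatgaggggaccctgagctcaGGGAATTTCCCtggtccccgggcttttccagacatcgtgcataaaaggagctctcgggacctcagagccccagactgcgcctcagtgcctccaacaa
Cxcl1: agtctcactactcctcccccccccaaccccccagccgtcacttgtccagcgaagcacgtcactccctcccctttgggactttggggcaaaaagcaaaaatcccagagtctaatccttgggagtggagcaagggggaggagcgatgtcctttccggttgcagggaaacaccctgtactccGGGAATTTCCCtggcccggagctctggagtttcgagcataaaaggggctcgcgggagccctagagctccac

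Shorter windows show the motif, again in capitals, in genes with other roles. Nfkbie encodes an inhibitor of NF-kB (chr17:45555569-45555628, plus strand), Slfn1 a schlafen protein of lymphoid and myeloid cells (chr11:83116752-83116811, plus strand) and Csf3r the receptor for the granulocyte growth factor G-CSF (chr4:126024505-126024564, plus strand).

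Nfkbie: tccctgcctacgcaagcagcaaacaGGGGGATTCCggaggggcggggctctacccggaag
Slfn1: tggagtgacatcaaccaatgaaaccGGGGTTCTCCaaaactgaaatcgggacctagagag
Csf3r: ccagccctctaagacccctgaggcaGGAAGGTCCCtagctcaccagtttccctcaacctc

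The interferon-stimulated response element (ISRE), searched on both strands as a GAAA, any 2 bases and a second GAAA, was present in 23 of 251 promoters of higher genes (9.16%), in 1 of 138 of lower genes (0.725%), in 2.97% of those of measured genes and in 3.44% of all promoters. In the list of interferon-stimulated genes it was 14 of 26 (53.8%). The windows below show it, in capitals, in 5 genes of that list at least 2-fold higher in BLT2KO_punched skin: Isg15 (chr4:156200850-156200909, minus strand), Bst2 (chr8:71537562-71537621, minus strand), Rsad2 (chr12:26456538-26456597, minus strand), Ifit3 (chr19:34583382-34583441, plus strand) and Oas1g (chr5:120887614-120887673, minus strand). The second probe of Ifit3 gave a log2 ratio of -0.06 against 1.24 for the one used, and over all settings the ratio of Ifit3 was as low as 0.59. Bst2, at 1.06, was as low as 0.78. Each sequence is written on the strand of its gene. In Isg15, Bst2 and Oas1g overlapping copies run on into each other, and in Bst2 a STAT match, searched as TTCNNNGAA, overlaps the first copy.

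Isg15: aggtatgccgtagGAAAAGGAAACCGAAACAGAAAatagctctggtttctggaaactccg
Bst2: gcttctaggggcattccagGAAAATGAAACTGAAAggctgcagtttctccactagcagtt
Rsad2: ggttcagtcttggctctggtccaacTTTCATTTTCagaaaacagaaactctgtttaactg
Ifit3: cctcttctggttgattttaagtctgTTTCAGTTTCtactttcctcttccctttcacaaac
Oas1g: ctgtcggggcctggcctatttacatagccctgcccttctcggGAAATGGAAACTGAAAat

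A match describes the letters and is not a shown binding site. Among the other motifs searched, C/EBP, as TTGCNNAA, was in 15.1% of the promoters of higher genes and 15.9% of those of lower genes, against 8.69% of measured genes. AP-1, as TGANTCA, was in 9.16% of higher, 13% of lower and 5.82% of measured genes. Neither share was larger in the higher genes than in the lower ones.

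Signals that call neutrophils were among the higher genes, with 3 of 4 measured past 2-fold. The neutrophil attractant Cxcl2 was at a log2 level of 11.41 on BLT2KO_punched and 7.30 on BLT2KO, a 17.25-fold difference, and its second probe gave a log2 ratio of 3.47. Cxcl1, which binds the same receptor, was at 9.75 on BLT2KO_punched and 6.95 on BLT2KO (6.95-fold higher). Ppbp, a platelet-derived relative, was at 7.74 on BLT2KO_punched, was not detected on BLT2KO and was at least 5.81-fold higher. The platelet chemokine Pf4, at 9.70 on BLT2KO_punched and 9.29 on BLT2KO, was the 1 of 4 measured attractants that stayed under 2-fold. In WT skin Cxcl2 was at 10.84 on WT_punched and 9.88 on WT. The punched arrays lay closer to each other than the unwounded arrays did.

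Chemokines that attract monocytes and lymphocytes were above 0 in 19 of 22 measured cases. Of the 22, 4 were higher by 2-fold or more and 0 lower. The median log2 ratio was 0.54, the same as in WT skin, where 5 of 22 were at least 2-fold higher. Ccl4, a product of activated macrophages, was at 13.33 on BLT2KO_punched and 9.39 on BLT2KO (15.3-fold higher). Ccl3, its neighbour in function, was at 10.67 on BLT2KO_punched and 6.89 on BLT2KO (13.7-fold higher), and the monocyte attractant Ccl7 was at 9.55 on BLT2KO_punched and 7.39 on BLT2KO (4.46-fold higher). Of those below 0, Ccl25 had a log2 ratio of -0.55, the keratinocyte chemokine Ccl27a of -0.39 and the lymphatic chemokine Ccl21a of -0.20. Cxcl14 and Cxcl12, which resting skin also makes, had 0.92 and 0.21.

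Of 21 chemokine receptors on the array, 9 were measured, and 5 of the 9 were at least 2-fold higher. These were the neutrophil receptors Cxcr1 (at least 5.29-fold) and Cxcr2 (7.50 on BLT2KO_punched and 5.44 on BLT2KO, 4.19-fold), the monocyte receptors Ccr2 (at least 2.47-fold) and Cx3cr1 (2.39-fold), and Cxcr4 (2.42-fold). The atypical receptors Ackr1, Ackr2 and Ackr4, which bind chemokines without attracting cells, had log2 ratios of -0.39, -0.77 and -0.41. Cxcr1, Ccr2 and Cxcr5 were detected on BLT2KO_punched alone, which favours a ratio above 0. The list median of 1.26 ranged from 0.11 to 1.36 over all settings.

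Neutrophil genes formed the list with the highest median of those with 10 or more measured members. Of 25 measured markers, 17 were higher by 2-fold or more and 0 lower. The median log2 ratio was 2.05, with a range of 0.96 to 2.21 over all settings tried. Trem1, Clec4e, Itgam, Ltf and Stfa3 were detected on BLT2KO_punched alone, so a ratio above 0 was nearly fixed for them. Retnlg, a secreted resistin-like protein of granulocytes, was at 10.63 on BLT2KO_punched and 6.35 on BLT2KO (19.4-fold higher). Fpr2, a receptor for formylated peptides of bacteria and damaged cells, was at 10.60 on BLT2KO_punched and 7.08 on BLT2KO (11.5-fold higher). Both differences exceeded the probe-pair SD, which does not measure the spread between mice. Each of these genes had 1 probe.

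The genes of granule and other secreted proteins varied. S100a9, a subunit of calprotectin, was at 12.43 on BLT2KO_punched and 9.84 on BLT2KO (6.03-fold), and its partner S100a8 at 13.67 on BLT2KO_punched and 11.77 on BLT2KO (3.72-fold). Lcn2, which withholds iron from bacteria, was at 10.92 on BLT2KO_punched and 8.85 on BLT2KO (4.19-fold). S100a8 had the highest level on BLT2KO_punched of all genes past 2-fold upward. Not every marker was higher: Stfa1 had a log2 ratio of 0.45, the granule genes Ltf of at least 0.24 and Prtn3 of -0.25, and Asprv1, which keratinocytes also make, of -0.50.

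Further receptors that neutrophils carry followed, of which Cd177 and Mrgpra2b stand outside the list. Trem1, which amplifies inflammatory signals, was at 8.17 on BLT2KO_punched and not detected on BLT2KO (at least 7.84-fold higher). Cd177, a surface protein of neutrophils, was at 7.68 on BLT2KO_punched and not detected on BLT2KO (at least 5.6-fold higher). Csf3r, whose promoter window is printed above, was at 8.04 on BLT2KO_punched and 5.55 on BLT2KO (5.61-fold higher). Mrgpra2b, a receptor for antimicrobial peptides on neutrophils, was at 9.02 on BLT2KO_punched and 5.54 on BLT2KO (11.15-fold higher), but its second probe gave a log2 ratio of 0.70 against 3.48 for the one used.

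The neutrophil list had its lowest levels in unwounded BLT2KO skin. Its median log2 level was 9.55 on BLT2KO_punched and 7.08 on BLT2KO, against 9.46 on WT_punched and 8.99 on WT. The punched arrays of both genotypes were close, and BLT2KO stood below WT. The plot of the 15 highest genes shows their levels on the same arrays. These genes were chosen by their ratio over BLT2KO, which favours a low level there, so their order is a description only.

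**Figure D2:**
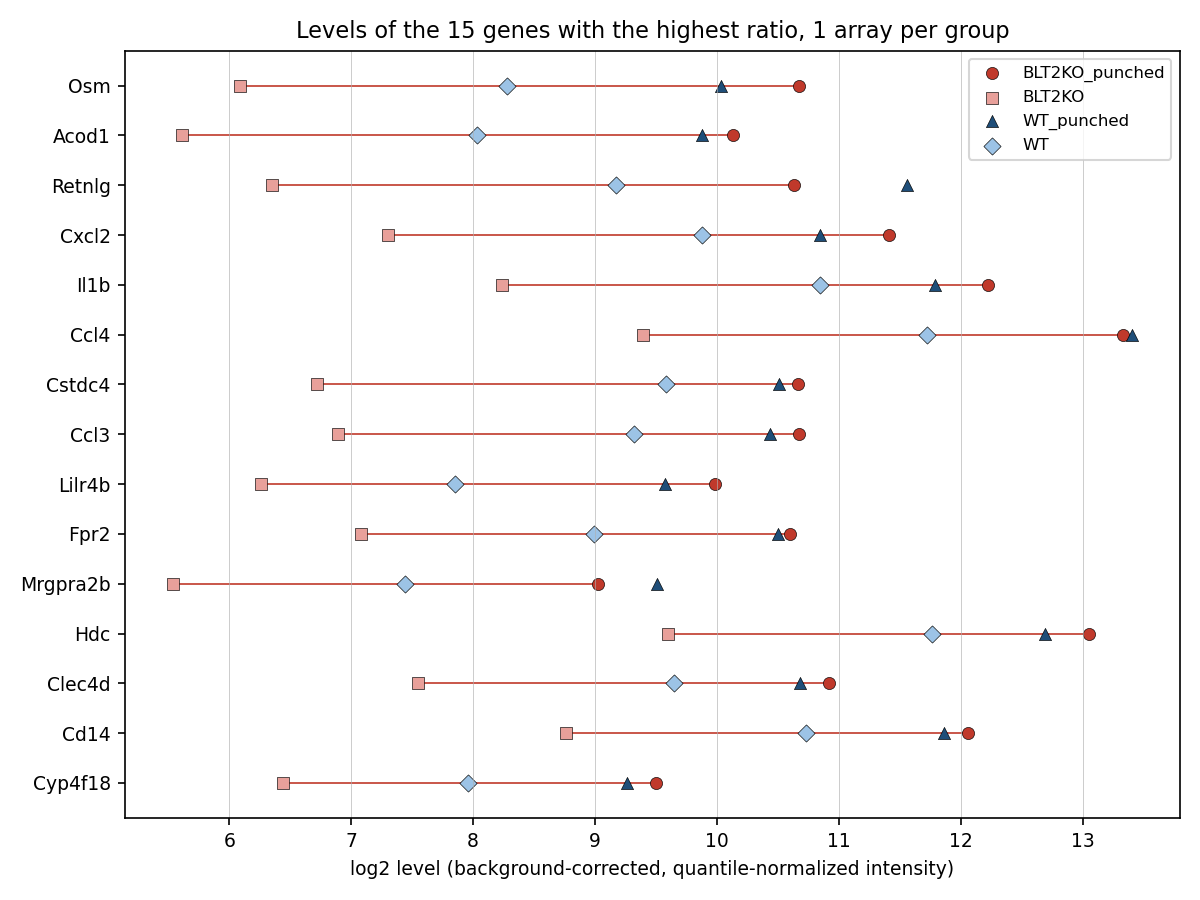
Log2 level (horizontal axis) on each of the 4 arrays for the 15 genes with the highest ratio of BLT2KO_punched (red circles) over BLT2KO (pink squares) among genes detected on both, with WT_punched (dark blue triangles) and WT (light blue diamonds), 1 array per group and no error bars. For Osm the levels are 10.67 on BLT2KO_punched, 6.09 on BLT2KO, 10.03 on WT_punched and 8.28 on WT. BLT2KO is the lowest of the 4 arrays for all 15 genes, which their choice by this ratio favours.

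Receptors of myeloid cells that carry lectin or immunoglobulin domains were all above 0. Of 26 measured, 18 were at least 2-fold higher, and the median log2 ratio was 1.48 (1.08 to 1.68 over all settings). Lilr4b, an inhibitory receptor, was at 9.98 on BLT2KO_punched and 6.26 on BLT2KO (13.1-fold higher). Clec4d, which recognises fungal and mycobacterial surfaces, was at 10.92 on BLT2KO_punched and 7.55 on BLT2KO (10.4-fold higher). Siglec1, a sialic acid receptor of macrophages, was at 8.22 on BLT2KO_punched and 5.74 on BLT2KO (5.58-fold higher), and the beta-glucan receptor Clec7a at 7.38 on BLT2KO_punched and 5.42 on BLT2KO (3.89-fold higher).

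The adaptors through which many of these receptors signal were higher by smaller folds. Tyrobp (DAP12) was at 9.63 on BLT2KO_punched and 8.18 on BLT2KO (2.74-fold), Hcst (DAP10) at 7.58 on BLT2KO_punched and 5.94 on BLT2KO (3.11-fold), and Fcer1g at 12.65 on BLT2KO_punched and 11.23 on BLT2KO (2.67-fold). The inhibitory Fcgr2b, at 9.71 on BLT2KO_punched and 9.24 on BLT2KO, stayed under 2-fold. The immunoglobulin receptors Fcgr4 (6.91-fold) and Fcgr1 (4.48-fold) passed it.

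Monocytes and inflammatory macrophages gave a second list of this kind. Of 27 measured genes, 16 were higher by 2-fold or more and 0 lower. The median was 1.24, and 0.95 to 1.41 in all settings. Acod1, which makes the antibacterial metabolite itaconate, was at 10.13 on BLT2KO_punched and 5.61 on BLT2KO (22.9-fold higher), and its second probe gave a log2 ratio of 3.61. Arg1, which breaks down arginine, was at 11.41 on BLT2KO_punched and 8.75 on BLT2KO (6.30-fold higher). Trem2, a lipid receptor of macrophages, was at 9.25 on BLT2KO_punched and 7.13 on BLT2KO (4.33-fold higher).

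General macrophage genes moved less. Lyz2 had a log2 ratio of 0.84, the lysosomal protease Ctsb of 0.11 and the lectin Lgals3 of -0.32. Their levels are high in unwounded skin too, with Ctsb at 13.09 on BLT2KO_punched and 12.99 on BLT2KO.

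The list of resident macrophages and of those activated by the cytokines IL-4 and IL-13 held the gene with the lowest ratio of all. Of 27 measured genes, 0 were higher by 2-fold or more and 4 were lower, while 18 lay above 0. Of the 4, Retnla alone stayed past 2-fold under every setting. Lyve1 was as near to 0 as -0.98, Clec10a as -0.89 and Cd209d as -0.82. Arg1 and Chil3 (at least 5.44-fold higher), which IL-4 is also known to induce, were counted with the inflammatory genes. Retnla, which encodes the resistin-like protein RELM-alpha, was at 5.77 on BLT2KO_punched and 9.29 on BLT2KO (11.5-fold lower), and was the 1 gene more than 8-fold lower. Lyve1, a hyaluronan receptor of lymphatic vessels and perivascular macrophages, was at 6.16 on BLT2KO_punched and 7.74 on BLT2KO (2.99-fold lower). The lectins Cd209d (2.96-fold lower) and Clec10a (7.25 on BLT2KO_punched and 8.43 on BLT2KO, 2.27-fold lower) completed the 4.

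The median of that list was 0.24. The scavenger receptor Cd163 was at 8.67 on BLT2KO_punched and 9.64 on BLT2KO (log2 ratio -0.96). The mannose receptor Mrc1 was at 11.25 on BLT2KO_punched and 10.82 on BLT2KO, the macrophage marker Adgre1 at 8.84 on BLT2KO_punched and 8.44 on BLT2KO, and the growth factor receptor Csf1r at 8.68 on BLT2KO_punched and 8.72 on BLT2KO. Each of these 3 was within 1.5-fold. The subunits of complement C1q, which macrophages make, had log2 ratios of 0.93 (C1qa), 0.83 (C1qb) and 0.82 (C1qc).

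Among interleukins of the IL-1 family, members differed in direction. Il1b, the secreted form of inflammatory myeloid cells, was at 12.22 on BLT2KO_punched and 8.24 on BLT2KO (15.7-fold higher), against 11.79 on WT_punched and 10.84 on WT. Il33, an alarmin stored in nuclei of epithelial and stromal cells, was at 10.41 on BLT2KO_punched and 8.60 on BLT2KO (3.52-fold higher). Il1a, the form that keratinocytes hold in store, was at 5.96 on BLT2KO_punched and 7.07 on BLT2KO (2.15-fold lower). Il1f8, also named Il36b, was at 6.85 on BLT2KO_punched and 8.21 on BLT2KO (2.56-fold lower). In all, 4 of 17 measured members were higher by 2-fold or more and 2 lower, with a median of 0.23.

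The inflammasome parts were as mixed. Mefv, which encodes the sensor pyrin, was at least 3.22-fold higher, and the pore protein gene Gsdmd was at 7.98 on BLT2KO_punched and 6.85 on BLT2KO (2.20-fold higher). Casp1, the protease that matures interleukin 1 beta, was at 10.87 on BLT2KO_punched and 10.88 on BLT2KO. The adaptor Pycard had a log2 ratio of -0.57.

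Cytokines that signal through gp130 and STAT3 had the gene of the largest ratio, Osm. It encodes oncostatin M, a product of neutrophils and macrophages that acts on keratinocytes and fibroblasts. Osm had a deposited intensity of 1904.9 on BLT2KO_punched and 114.2 on BLT2KO, and log2 levels of 10.67 on BLT2KO_punched and 6.09 on BLT2KO (24.0-fold higher). Its log2 ratio was between 3.71 and 4.75 over all settings tried. The receptor gene Osmr was at 8.67 on BLT2KO_punched and 8.68 on BLT2KO, and the shared subunit Il6st at 8.64 on BLT2KO_punched and 8.42 on BLT2KO.

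Genes that STAT3 is known to induce differed. The feedback inhibitor Socs3 was at 10.31 on BLT2KO_punched and 9.0 on BLT2KO (2.48-fold), and the AP-1 subunit gene Junb at 12.09 on BLT2KO_punched and 10.79 on BLT2KO (2.46-fold). Bcl3 had a log2 ratio of 0.96, Cish of 0.18 and Pim1 of 0.00. Il31ra, which pairs with the oncostatin M receptor to bind the itch cytokine IL-31, was at 6.79 on BLT2KO_punched and 8.06 on BLT2KO (2.42-fold lower). Of 20 measured genes of this group, 5 were higher by 2-fold or more and 1 lower, with a median of 0.23. None of the 4 arrays detected Il6.

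Of 23 measured genes of TNF and of the feedback on NF-kB, 6 were higher by 2-fold or more and 0 lower (median 0.47). Tnf itself was at 7.68 on BLT2KO_punched and 5.65 on BLT2KO (4.07-fold higher). The inhibitor gene Nfkbie was at 7.06 on BLT2KO_punched and 5.67 on BLT2KO (2.62-fold higher), whereas the best known feedback gene Nfkbia was at 10.49 on BLT2KO_punched and 9.87 on BLT2KO (log2 ratio 0.62). The A20 gene Tnfaip3 was at 5.67 on BLT2KO_punched and 5.6 on BLT2KO. Higher genes were thus a minority of this list, although 21 of 23 ratios were above 0.

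Toll-like receptors sense microbial products and debris of cells. The endotoxin co-receptor Cd14 was at 12.06 on BLT2KO_punched and 8.76 on BLT2KO (9.87-fold higher). Tlr6, which pairs with TLR2 on bacterial lipopeptides, was at 8.85 on BLT2KO_punched and 6.01 on BLT2KO (7.15-fold higher). Tlr2 was at 9.20 on BLT2KO_punched and 7.70 on BLT2KO (2.83-fold higher), and Tlr13, a sensor of bacterial ribosomal RNA, at 7.99 on BLT2KO_punched and 5.83 on BLT2KO (4.46-fold higher). Tlr4, the endotoxin receptor, was at 7.34 on BLT2KO_punched and 7.04 on BLT2KO and so within 1.5-fold. The group had 6 of 19 measured members higher by 2-fold or more and 0 lower, with a median of 0.68.

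Genes that type I interferon induces were above 0 in all 34 measured cases, against 5295 of all 10587 measured genes. Irf7, Ddx58, Mx2, Oasl1 and Rtp4 were detected on BLT2KO_punched alone, so a ratio above 0 was nearly fixed for them. Of the 34, 12 were at least 2-fold higher, and the median was 0.75 (0.54 to 0.86 over all settings). Rsad2, which encodes the antiviral enzyme viperin, was at 9.13 on BLT2KO_punched and 7.03 on BLT2KO (4.28-fold higher). The ubiquitin-like modifier Isg15 was at 8.69 on BLT2KO_punched and 6.81 on BLT2KO (3.69-fold higher), and Oas1g, a sensor of double-stranded RNA, at 8.72 on BLT2KO_punched and 7.0 on BLT2KO (3.30-fold higher). Irf7, the factor that extends the response, was at 7.30 on BLT2KO_punched and not detected on BLT2KO (at least 4.28-fold higher).

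The other members ran from Rtp4 at 0.02 and Ifi27 at 0.12 to Usp18 at 0.95. Among those that interferon gamma is also known to induce, Tap1 had a log2 ratio of 0.44, Psmb9 of 0.47, Gbp2 of 0.53, Igtp of 0.69 and Gbp3 of 0.81. The gamma-responsive chemokines Cxcl9 and Cxcl10 had ratios of 0.20 and at least 0.33. The chemokine Ccl5 was at 6.25 on BLT2KO_punched and 5.26 on BLT2KO (log2 ratio 0.99).

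The plot by gene list sets these groups beside those described next.

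**Figure D3:**
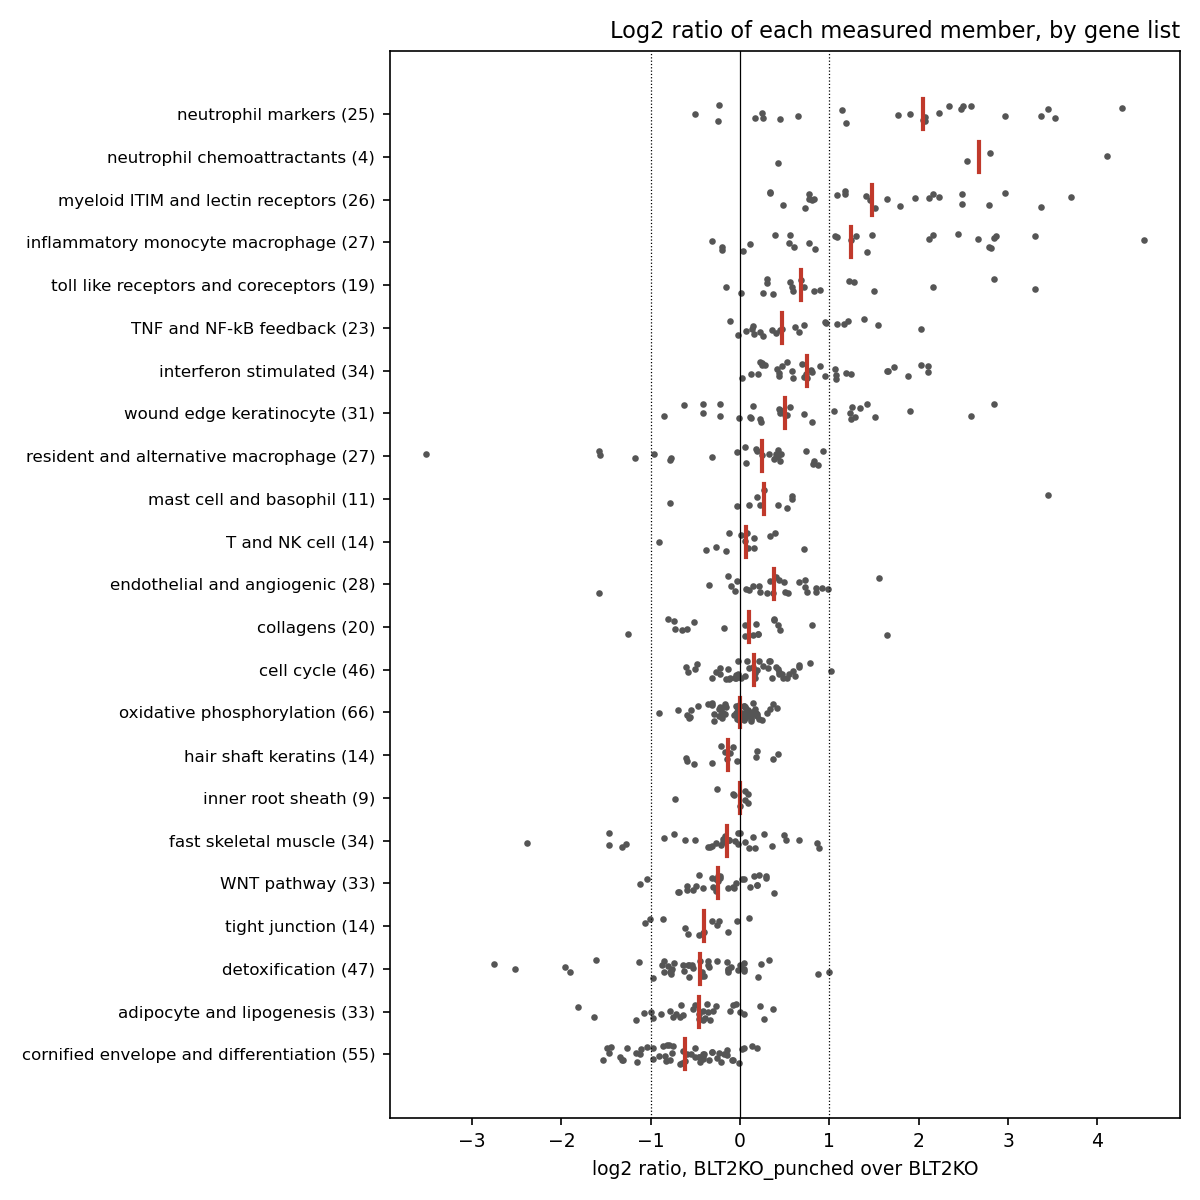
Log2 ratio of BLT2KO_punched over BLT2KO (horizontal axis) for each measured member (points) of 23 gene lists, with the number of measured members in brackets, the list median as a red bar and dotted lines at 2-fold. Medians run from 2.67 for the 4 neutrophil chemoattractants to -0.62 for the 55 cornified envelope genes, against 0.00 for all measured genes.

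Secreted defence proteins and acute-phase proteins had 10 of 26 measured members higher by 2-fold or more and 0 lower (median 0.75, and 0.23 to 0.90 over all settings). Of the 10, S100a8, S100a9, Lcn2 and Pglyrp1 were also counted among the neutrophil markers. Saa3, the serum amyloid made in inflamed tissue, was at 12.81 on BLT2KO_punched and 9.78 on BLT2KO (8.21-fold higher), against 13.42 on WT_punched and 12.95 on WT. Reg1, a secreted lectin-type protein, was at 8.50 on BLT2KO_punched and 5.54 on BLT2KO (7.80-fold higher), and it was also high in WT_punched at 9.44 against 5.91 in WT. Ptx3, a pattern-recognition pentraxin, was at 7.87 on BLT2KO_punched and not detected on BLT2KO (at least 6.39-fold higher). Among the beta-defensins, Defb8 was 3.41-fold higher, and Defb4 and Defb14 had log2 ratios of 0.73 and 0.42. Defb6 and Defb1, which resting epithelium makes, had log2 ratios of -0.31 and -0.43.

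Stefin A genes encode small inhibitors of cysteine proteases in neutrophils and keratinocytes. Cstdc4 was at 10.66 on BLT2KO_punched and 6.72 on BLT2KO (15.3-fold higher), and Csta3 at 10.10 on BLT2KO_punched and 8.68 on BLT2KO (2.69-fold higher). Of 10 measured genes, 4 were at least 2-fold higher. They are near-identical copies in 1 cluster, so a probe may read several of them and their values are uncertain one by one. Of 8 schlafen genes on the array, 2 were measured. Both were detected on BLT2KO_punched alone, so a ratio above 0 was nearly fixed for them. Slfn1 was at 8.79 on BLT2KO_punched and not detected on BLT2KO (at least 12.1-fold higher), and Slfn2 was at least 2.13-fold higher. The list median of 2.34 ranged from 0.09 to 2.46 over all settings.

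Enzymes that make or remove lipid mediators bear on the ligands of the missing receptor. Cyp4f18, which ends the action of leukotriene B4 in neutrophils by hydroxylation, was at 9.50 on BLT2KO_punched and 6.44 on BLT2KO (8.36-fold higher). Alox5ap, the protein that presents arachidonic acid for leukotriene synthesis, was at 11.86 on BLT2KO_punched and 10.11 on BLT2KO (3.35-fold higher), while the lipoxygenase Alox5 was at 7.11 on BLT2KO_punched and 6.84 on BLT2KO. Tbxas1, the thromboxane synthase whose reaction also yields 12-HHT, was at 7.26 on BLT2KO_punched and 6.37 on BLT2KO (log2 ratio 0.90). Ptgis, the prostacyclin synthase, was at 9.62 on BLT2KO_punched and 7.46 on BLT2KO (4.48-fold higher).

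The lipoxygenases of the epidermal barrier lay on the other side of 0. Alox12b was at 9.15 on BLT2KO_punched and 10.26 on BLT2KO (2.15-fold lower), and its partner Aloxe3 had a log2 ratio of -0.83. Across the 27 measured genes of leukotriene and prostanoid metabolism, 4 were higher by 2-fold or more and 1 lower, and the median of -0.02 turned positive under some settings (-0.07 to 0.10).

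Proteases and their inhibitors had 6 of 22 members higher by 2-fold or more and 1 lower, with a median of 0.41. Timp1, an inhibitor of metalloproteinases, was at 12.63 on BLT2KO_punched and 10.15 on BLT2KO (5.58-fold higher), with 2.50 from its second probe on the log2 scale. Mmp9, the gelatinase stored by neutrophils, was at 9.63 on BLT2KO_punched and 7.15 on BLT2KO (5.55-fold higher). Adam8, a protease of leukocytes, was at 7.55 on BLT2KO_punched and 5.55 on BLT2KO (4.00-fold higher). The stromal genes Mmp2 (log2 ratio -0.25), Mmp14 (0.09) and Timp2 (-0.18) were within 1.5-fold, and Timp4 was at 5.52 on BLT2KO_punched and 6.78 on BLT2KO (2.39-fold lower).

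The urokinase receptor Plaur was at 8.91 on BLT2KO_punched and 6.07 on BLT2KO (7.18-fold higher), and its ligand Plau at 8.08 on BLT2KO_punched and 7.21 on BLT2KO (log2 ratio 0.87). The coagulation factor genes F10 (8.02 on BLT2KO_punched and 5.21 on BLT2KO, 7.01-fold) and F7 (at least 2.48-fold) were also higher. These 3 were the only ones past 2-fold of 17 measured genes of plasminogen and coagulation (median 0.21).

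In the matrix that first fills a wound, thrombospondin and tenascin had the highest ratios. Thbs1 was at 8.58 on BLT2KO_punched and 5.71 on BLT2KO (7.32-fold higher). Tnc was at 10.51 on BLT2KO_punched and 9.08 on BLT2KO (2.68-fold higher), while Fn1, which encodes fibronectin, was at 9.11 on BLT2KO_punched and 9.15 on BLT2KO. The fibronectin receptor subunit Itga5 was at 8.73 on BLT2KO_punched and 7.50 on BLT2KO (2.35-fold higher). These were 3 of 19 measured genes of provisional matrix and hyaluronan, whose median of -0.03 ranged from -0.03 to 0.21.

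The main fibrillar collagens of dermis, Col1a1, Col1a2 and Col3a1, were below 0. Col1a2 was at 10 on BLT2KO_punched and 11.25 on BLT2KO (2.38-fold lower), Col1a1 at 13.08 on BLT2KO_punched and 13.74 on BLT2KO (log2 ratio -0.65) and Col3a1 at 9.91 on BLT2KO_punched and 10.51 on BLT2KO (-0.60). Of the minor fibrillar chains, Col5a2 had a log2 ratio of -0.81, Col5a1 of 0.14 and Col5a3 of 0.80. Col8a1, a short-chain collagen of vessel walls, was at 8.19 on BLT2KO_punched and 6.54 on BLT2KO (3.14-fold higher). The basement membrane genes Col4a1 and Col4a2 had ratios of 0.45 and 0.38. With 1 of 20 collagens higher and 1 lower and a median of 0.10, the list as a whole was near the median of all genes.

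Genes of matrix assembly showed the same split. Pcolce2, an enhancer of collagen processing, was at 8.28 on BLT2KO_punched and 9.79 on BLT2KO (2.85-fold lower), and Angptl7, a secreted protein of stromal cells, at 6.85 on BLT2KO_punched and 8.57 on BLT2KO (3.27-fold lower). Plod2, which hydroxylates collagen lysines for cross-links, was at 6.45 on BLT2KO_punched and 5.36 on BLT2KO (2.13-fold higher). Of the fibroblast list, 1 of 20 genes passed 2-fold, Col1a2. Pdgfra had a log2 ratio of 0.43 and the myofibroblast gene Acta2 of 0.28.

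Keratinocytes at a wound edge are known to switch on a set of keratins, proteases and signals. Of 31 measured genes of that set, 11 were higher by 2-fold or more and 0 lower (median 0.50, and 0.42 to 0.64 over all settings). Several of the 11 are also genes of neutrophils, such as S100a8, S100a9 and Slpi, or of other cells, such as Plaur and Tnc, and neutrophil markers were higher on the same array; their part in this list was not tested. Krt6b, a keratin of activated epidermis, was at 13.45 on BLT2KO_punched and 12.20 on BLT2KO (2.38-fold higher), with 1.58 from its second probe on the log2 scale. Krt16 was at 14 on BLT2KO_punched and 13.51 on BLT2KO (1.41-fold higher), Krt17 at 14.17 on BLT2KO_punched and 14.38 on BLT2KO, and Krt6a at 6.95 on BLT2KO_punched and 6.96 on BLT2KO. The keratins of this set therefore differed among themselves, and 1 of the 4 passed 2-fold.

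Secreted signals of that set included Inhba, the activin A subunit gene, at 8.24 on BLT2KO_punched and 6.73 on BLT2KO (2.85-fold higher). Upp1, which breaks down uridine, was at 10.71 on BLT2KO_punched and 9.43 on BLT2KO (2.44-fold higher). The collagenase gene Mmp13 was at 8.97 on BLT2KO_punched and 7.73 on BLT2KO (2.36-fold higher), against 10.16 on WT_punched and 9.91 on WT. Both BLT2KO arrays lay below both WT arrays for Mmp13.

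The EGF receptor family, its ligands and its regulators bear on migration of keratinocytes. Of 11 measured genes of this list, 0 passed 2-fold in either direction. The neuregulin gene Nrg1 had the highest log2 ratio (0.92) and the betacellulin gene Btc the lowest (-1.0, 6.90 on BLT2KO_punched and 7.90 on BLT2KO). Hbegf was at 7.42 on BLT2KO_punched and 7.19 on BLT2KO.

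Genes of the cornified envelope and late differentiation lay below 0 in 51 of 55 cases. Of the 55, 13 were at least 2-fold lower and 0 higher. The median was -0.62, and -0.67 to -0.49 in all settings. Flg2, which encodes a filaggrin-like protein of the horny layer, was at 9.56 on BLT2KO_punched and 11.08 on BLT2KO (2.88-fold lower). The keratin gene Krt77 was at 10.77 on BLT2KO_punched and 12.21 on BLT2KO (2.71-fold lower), and Lce1f, 1 of the late envelope proteins, at 11.06 on BLT2KO_punched and 12.42 on BLT2KO (2.55-fold lower). The lipid transporter gene Abca12 was at 6.45 on BLT2KO_punched and 7.76 on BLT2KO (2.48-fold lower), and Spink5, an inhibitor of epidermal proteases, at 6.01 on BLT2KO_punched and 7.33 on BLT2KO (2.50-fold lower).

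The late envelope genes varied among themselves. Lce1d, Lce1f, Lce1g, Lce1i and Lce1l were each at least 2-fold lower, while Lce1b (-0.62), Lce1c (-0.46) and Lce1e (-0.32) were not. Of the Lce3 genes, which inflamed skin is known to express, Lce3f had a log2 ratio of -0.65, Lce3c of -0.59, Lce3b of -0.24 and Lce3a of 0.13. The transglutaminase genes Tgm3 (-0.01) and Tgm5 (0.02) and the suprabasal keratin Krt10 (-0.15) were within 1.5-fold. The repetin gene Rptn was at 11.78 on BLT2KO_punched and 11.75 on BLT2KO.

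Basal keratinocyte genes stayed under 2-fold in all 14 measured cases, with a median of -0.12. The largest ratios below 0 were those of the stem cell keratin Krt15, at 11.56 on BLT2KO_punched and 12.37 on BLT2KO (-0.82), and of Dst, which anchors keratin to the basement membrane (-0.78). Among 14 tight junction genes, the claudins Cldn23 (8.32 on BLT2KO_punched and 9.38 on BLT2KO, 2.09-fold lower) and Cldn10 (9.82 on BLT2KO_punched and 10.83 on BLT2KO, 2.02-fold lower) passed 2-fold. Cldn1, which seals the epidermal barrier, was at 9.59 on BLT2KO_punched and 10.46 on BLT2KO (log2 ratio -0.86). The desmosomal cadherin gene Dsc1 had a log2 ratio of -0.98, and among the connexins, Gja5, which vessels express, was at 6.82 on BLT2KO_punched and 5.78 on BLT2KO. That was the 1 of 15 genes of desmosomes and connexins past 2-fold.

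Hair shaft genes had small ratios between the BLT2KO arrays, 10 of 14 of them below 0 (median -0.13). Of 14 hair shaft genes, 0 passed 2-fold, with a median log2 level of 10.55 on BLT2KO_punched and 10.89 on BLT2KO, against 6.14 on WT_punched and 7.74 on WT. Of 9 inner root sheath genes, 0 passed it, and the keratin Krt71 was at 13.87 on BLT2KO_punched and 13.81 on BLT2KO, against 8.77 on WT_punched and 11.24 on WT. Keratin-associated proteins, the matrix of the hair shaft, were below 0 for 29 of 33 measured genes (median -0.4). Of the 33, 4 were at least 2-fold lower, against 1.71% of all measured genes. Krtap19-3 had the lowest log2 ratio of the list (6.77 on BLT2KO_punched and 7.85 on BLT2KO, -1.08). The keratin-associated genes are near-identical in part, so their probes may not tell all of them apart. In WT skin 9 of 12 measured hair shaft genes and 9 of 9 genes of the inner root sheath lay 2-fold or more below, on arrays where their levels were lower throughout.

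Pathways that steer follicles and repair were mostly under 2-fold. Among 33 WNT pathway genes, 2 were at least 2-fold lower and 0 higher (median -0.25, and -0.25 to -0.05 over all settings): the ligand gene Wnt7b, at 8.39 on BLT2KO_punched and 9.43 on BLT2KO (2.06-fold), and Dkkl1 (2.18-fold). Among 33 genes of the TGF-beta and BMP pathways, Inhba and Tgfb1 were at least 2-fold higher. Tgfb1 was at 9.64 on BLT2KO_punched and 8.42 on BLT2KO (2.34-fold higher). The BMP antagonist Grem1, at 7.11 on BLT2KO_punched and 8.49 on BLT2KO (2.61-fold lower), and the receptor gene Bmpr1a, at 7.22 on BLT2KO_punched and 8.46 on BLT2KO (2.36-fold lower), were on the other side.

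Enzymes that clear foreign or reactive compounds held 3 of the 4 lowest ratios among genes detected on both arrays. Of 47 measured, 6 were at least 2-fold lower and 0 higher. The median was -0.45, and -0.47 to -0.24 in all settings. Gsta3, a glutathione transferase, was at 6.44 on BLT2KO_punched and 9.20 on BLT2KO (6.78-fold lower). The cytochrome P450 gene Cyp2e1 was at 9.28 on BLT2KO_punched and 11.80 on BLT2KO (5.74-fold lower), and the methyltransferase gene Inmt at 8.89 on BLT2KO_punched and 10.85 on BLT2KO (3.90-fold lower). Aldh1a1, which makes retinoic acid, was at 5.59 on BLT2KO_punched and 7.20 on BLT2KO (3.06-fold lower). The plot of the 15 lowest genes shows that the WT arrays did not follow this order for Gsta3 and Cyp2e1.

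**Figure D4:**
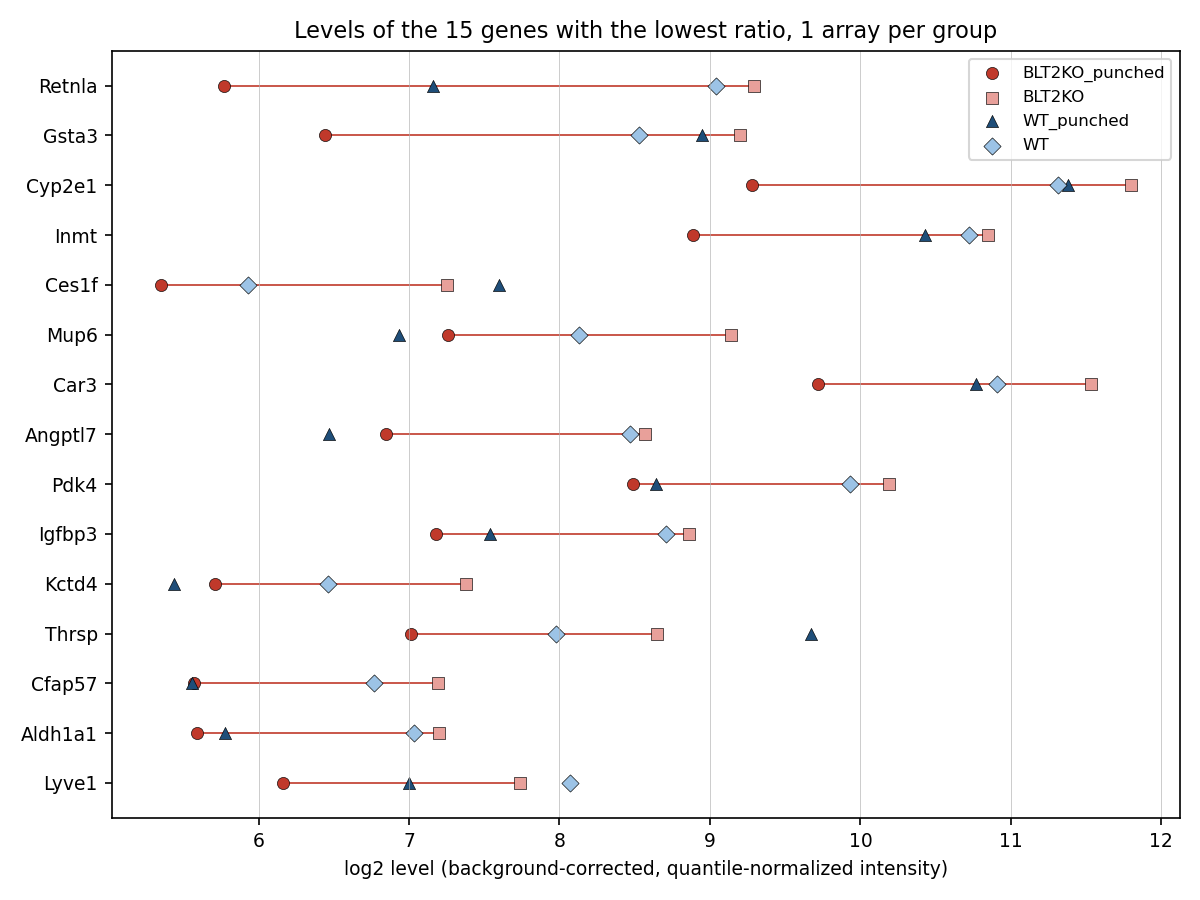
Log2 level (horizontal axis) on each of the 4 arrays for the 15 genes with the lowest ratio of BLT2KO_punched (red circles) over BLT2KO (pink squares) among genes detected on both, with WT_punched (dark blue triangles) and WT (light blue diamonds), 1 array per group and no error bars. Retnla lies at 5.77 on BLT2KO_punched and 9.29 on BLT2KO, and Gsta3 at 6.44 on BLT2KO_punched and 9.20 on BLT2KO, against 8.95 on WT_punched and 8.53 on WT.

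Fat genes moved with that group. Of 33 measured genes of adipocytes and of lipid synthesis, 4 were at least 2-fold lower, 0 were higher and 28 were below 0 (median -0.46). Car3, a carbonic anhydrase of fat and muscle, was at 9.72 on BLT2KO_punched and 11.53 on BLT2KO (3.50-fold lower). Cidec, a protein of large lipid droplets, was at 8.31 on BLT2KO_punched and 9.47 on BLT2KO (2.24-fold lower), and the hormone gene Adipoq at 10.03 on BLT2KO_punched and 11 on BLT2KO (log2 ratio -0.97). Genes of lipid synthesis differed: Acly was at 12.21 on both arrays, while Thrsp had a log2 ratio of -1.64. Adipocytes also express Cyp2e1 and Inmt, and the share of fat tissue in each biopsy was not measured.

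In WT skin the adipocyte list had a median wound ratio of 0.15. Adipoq was at 11.34 on WT_punched and 11.11 on WT. For 2 of 32 genes measured in both genotypes the ratio was larger in BLT2KO skin. This difference was not tested.

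Transporters of several kinds and a hexokinase were among the higher genes. The glucose transporter gene Slc2a3 was at 9.80 on BLT2KO_punched and 6.76 on BLT2KO (8.19-fold higher), and the hexokinase of leukocytes, Hk3, at 8.84 on BLT2KO_punched and 6.48 on BLT2KO (5.14-fold higher). The phagosomal metal transporter gene Slc11a1 was at 12.04 on BLT2KO_punched and 9.82 on BLT2KO (4.68-fold higher), and the peptide transporter gene Slc15a3 at 10.46 on BLT2KO_punched and 8.23 on BLT2KO (4.69-fold higher). In a list of transporters and channels of wounds, 7 of 16 measured genes were higher by 2-fold or more and 0 lower, with a median of 0.90. Like those of the other lists, its members were chosen with earlier results of these data known, so the count is a description only.

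Of 29 measured genes of glycolysis and hypoxia, 4 were higher by 2-fold or more and 0 lower, with a median of 0.31. The general glycolysis genes Ldha and Pkm were under 2-fold. Ldha was at 13.14 on BLT2KO_punched and 12.67 on BLT2KO, and Pkm at 12.78 on BLT2KO_punched and 12.10 on BLT2KO. The hypoxia-induced Ankrd37 was at 6.98 on BLT2KO_punched and 5.70 on BLT2KO (2.44-fold higher), while Vegfa and the hypoxia enzyme genes Car9 and Pdk1 had log2 ratios of 0.10, at least 0.28 and 0.04. Pdk4, which spares glucose during fasting, was at 8.49 on BLT2KO_punched and 10.19 on BLT2KO (3.25-fold lower). All 66 measured subunits of oxidative phosphorylation stayed under 2-fold, with a median of 0.00.

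Redox genes split in the same way. Slc7a11, the cystine importer gene, was 2.79-fold higher and the haem oxygenase gene Hmox1 was at 9.33 on BLT2KO_punched and 8.26 on BLT2KO (2.09-fold higher). Of 31 measured redox genes, these were the 2 past 2-fold upward, and Cat, which encodes catalase, was the 1 past it downward. The metallothionein gene Mt1 was at 14.45 on BLT2KO_punched and 14.18 on BLT2KO.

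A thin muscle lies beneath mouse skin. Of 34 measured genes of fast muscle, 5 were at least 2-fold lower and 0 higher, while the median of -0.14 was near that of all genes. Mettl21c, a methyltransferase gene of muscle, was not detected on BLT2KO_punched and was at 7.49 on BLT2KO (at least 5.23-fold lower). Myh1 was at 8.79 on BLT2KO_punched and 10.26 on BLT2KO (2.76-fold lower), and Mb, which encodes myoglobin, at 11.04 on BLT2KO_punched and 12.36 on BLT2KO (2.49-fold lower). Acta1, the main actin of this muscle, was at 14.39 on BLT2KO_punched and 14.41 on BLT2KO, and Ckm at 12.58 on BLT2KO_punched and 12.09 on BLT2KO.

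Developmental and slow muscle genes had 4 of 19 members higher by 2-fold or more and 2 lower (median 0.17). The embryonic light chain Myl4 was at 10.63 on BLT2KO_punched and 8.97 on BLT2KO (3.16-fold higher), the cardiac actin Actc1 at 8.10 on BLT2KO_punched and 6.38 on BLT2KO (3.31-fold higher) and the fetal acetylcholine receptor gene Chrng at 7.67 on BLT2KO_punched and 6.44 on BLT2KO (2.34-fold higher). The stress-sensing Csrp3 was at 11.71 on BLT2KO_punched and 13.09 on BLT2KO (2.61-fold lower), and its other probes gave log2 ratios of -1.77 and -1.83. How much muscle each biopsy held was not measured.

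Other cell types gave few genes past 2-fold. Of 28 endothelial genes, the apelin receptor gene Aplnr was at 7.37 on BLT2KO_punched and 5.81 on BLT2KO (2.94-fold higher) and Lyve1 was lower, while 22 of 28 ratios were above 0 (median 0.38). Of 11 mast cell and basophil genes, Hdc alone passed 2-fold. Hdc makes histamine in mast cells and in neutrophils; it was at 13.05 on BLT2KO_punched and 9.60 on BLT2KO (10.9-fold higher). The mast cell proteases Mcpt4 (0.58), Cma1 (0.52), Cpa3 (0.27) and Tpsb2 (0.22) had small log2 ratios.

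Of 14 genes of T and NK cells, 0 passed 2-fold, with a median of 0.07. The T cell receptor chain gene Trgv4 had a log2 ratio of -0.91 (5.64 on BLT2KO_punched and 6.54 on BLT2KO), Cd3e of -0.38 and Foxp3 of 0.16. Of 20 dendritic cell and antigen presentation genes, Cd80 (at least 2.69-fold) and Fscn1 (2.09-fold) were higher, and Cd207, the langerin gene of Langerhans cells, was at 6.77 on BLT2KO_punched and 7.99 on BLT2KO (2.33-fold lower). The class II gene Cd74 was at 12.90 on BLT2KO_punched and 12.32 on BLT2KO. No gene of the melanocyte (11), sebaceous (19), Schwann cell (10) or erythroid (6) lists passed 2-fold.

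Early response genes, which cells induce soon after a stimulus, had 5 of 31 members higher by 2-fold or more and 0 lower (median 0.32). Ier3 was at 12.80 on BLT2KO_punched and 11.28 on BLT2KO (2.86-fold higher), and Atf3 at 7.15 on BLT2KO_punched and 6.09 on BLT2KO (2.07-fold higher). Egr1 had a log2 ratio of 0.41, Egr3 of -0.66 and Fosb of -0.39. Among 46 cell cycle genes, the mitotic kinase gene Aurka was the 1 past 2-fold, at 7.46 on BLT2KO_punched and 6.45 on BLT2KO (median of the list 0.16). Of 16 clock genes, the nuclear receptor gene Rora was at 8.99 on BLT2KO_punched and 10.07 on BLT2KO (2.12-fold lower), and the median was -0.29. The labels do not give the hour of the biopsies.

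The same genes were read in WT skin to see where the response of BLT2KO skin differed. All 328 higher genes were also measured in WT skin, where 135 (41.2%) were at least 2-fold higher, 55 lay within 1.5-fold and 6 had a ratio below 0. Their median log2 ratio was 1.41 in BLT2KO and 0.92 in WT; since they were chosen by the ratio in BLT2KO, these values are a description only. Of the lower genes, 176 were measured in WT skin, 63 (35.8%) were at least 2-fold lower there and 10 had a ratio above 0. From the other side, 135 of 200 genes at least 2-fold higher in WT skin (67.5%) and 63 of 154 lower ones (40.9%) passed 2-fold the same way in BLT2KO skin. In WT skin 1.94% of 10382 measured genes were higher by 2-fold or more and 1.48% lower.

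Several kinds of gene lay away from the line of equal ratios. Some inflammatory genes had larger ratios in BLT2KO: the difference of log2 ratios, BLT2KO minus WT, was 3.15 for Cxcl2, 3.03 for Il1b, 2.84 for Osm and 2.67 for Ccl3. The hair genes S100a3 and Krt28 had log2 ratios of -0.21 and -0.08 in BLT2KO and lower ones in WT, with differences of 3.19 and 3.09. Genes of detoxification, fat and slow muscle had the smaller ratio in BLT2KO, with differences of -3.18 for Gsta3, -3.33 for Thrsp, -2.95 for Tnnc1 and -2.64 for Tnnt1. With 1 array in each group these differences were not tested. Tnnc1 was at 7.66 on BLT2KO_punched and 6.10 on BLT2KO, against 10.68 on WT_punched and 6.17 on WT.

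By list, the ratio in BLT2KO was the larger for 24 of 26 myeloid receptor genes, 19 of 23 neutrophil markers and 24 of 31 wound-edge genes. It was the larger for 13 of 22 monocyte and lymphocyte chemokines, 8 of 17 genes of the IL-1 family and inflammasome and 4 of 8 chemokine receptors. It was the larger for 4933 of 10043 genes measured in both genotypes. Myeloid receptors had a median log2 level of 8.20 on BLT2KO_punched and 5.86 on BLT2KO, against 8.07 on WT_punched and 7.14 on WT. The lowest of these 4 levels was again that of BLT2KO. For cornified envelope genes the ratio in BLT2KO was the larger for 8 of 53, and the median level was 10.53 on BLT2KO_punched and 11.09 on BLT2KO, against 10.52 on WT_punched and 10.85 on WT. In both lists the punched arrays lay closer to each other than the unwounded arrays did.

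**Figure D5:**
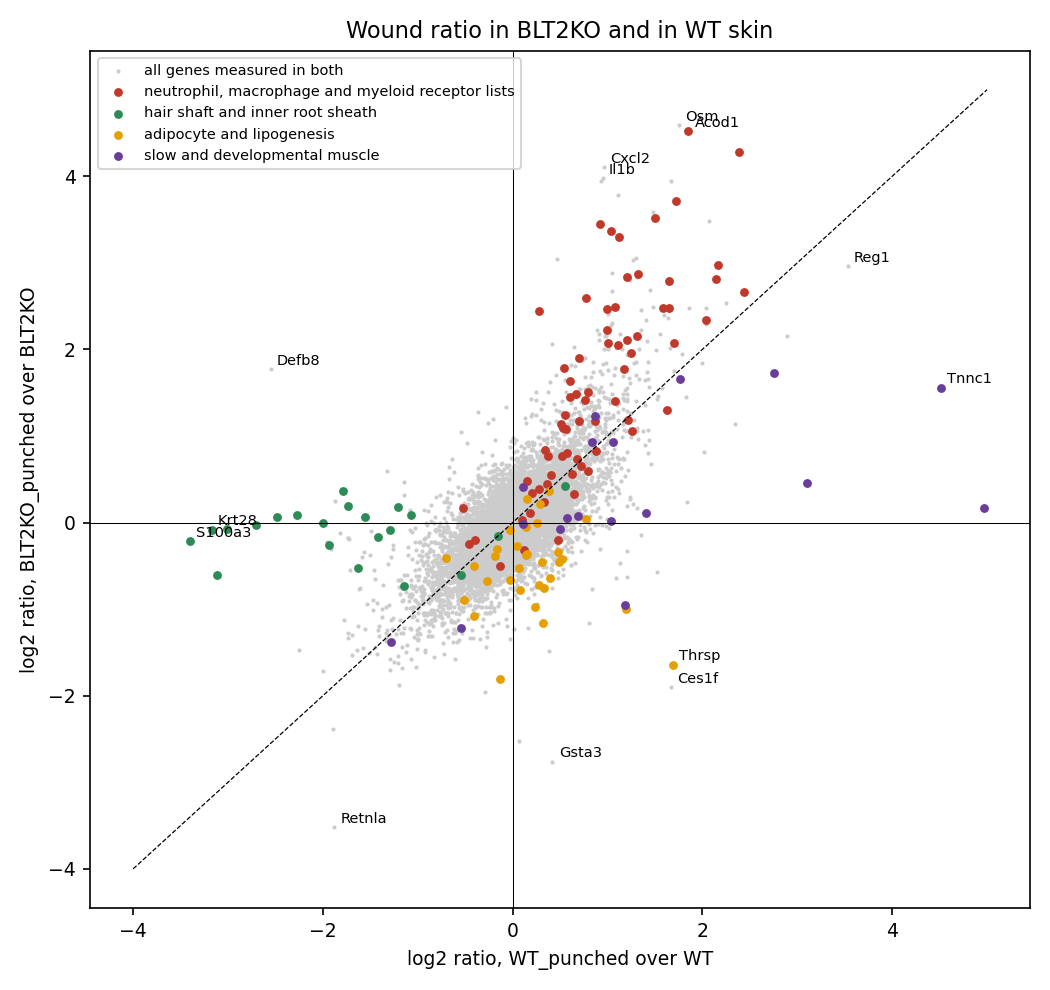
Log2 wound ratio of BLT2KO skin (BLT2KO_punched over BLT2KO, vertical axis) against that of WT skin (WT_punched over WT, horizontal axis) for the 10043 genes measured in both, with 4 groups of lists coloured and the line of equal ratios dashed. Cxcl2 lies above the line at 4.11 in BLT2KO and 0.96 in WT, and Thrsp below it at -1.64 in BLT2KO and 1.69 in WT.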

How the data were processed

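RNA pools of 4 groups were each read on 1 Illumina MouseWG-6 array, scanned and read out with BeadStation and BeadStudio, per the labels. The deposited table holds, for each of 45281 probes and each array, an intensity on a linear scale, without background correction as its values show, and a detection p-value, both made by the authors. A second deposited table holds processed intensity values, which were the first ones times 1 constant per array (0.950 to 1.24), and served as an alternative.

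Intensities were corrected for background by the normexp model with parameters inferred from the detection p-values, raised by an offset of 16, quantile normalized over the 4 arrays and put on the log2 scale with limma 3.58.1 in R 4.3.3 (neqc). These log2 values were computed here from the deposited intensities and not by the authors. Of the probes, 34885 named 1 gene, 18 named several and were left out, and 10396 in all had no single gene name. For a gene with several probes, the probe of highest mean level was used. Counts at 2-fold describe the arrays. The steps were tested on simulated data.

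The genes named are the 15 highest and 15 lowest ratios among genes detected on both arrays (without clone names), the 6 largest bounds in each direction, the 10 highest and lowest differences between genotypes, the most abundant genes past 2-fold, members of the gene lists and some genes chosen by name. The members and lists were chosen with earlier results of these data known. Alternatives were no background correction, an offset of 50, median scaling, the BLT2KO arrays normalized alone, the processed values, other detection rules and the mean of probes. Centred median scaling was added after seeing the data. Python 3.11.15, numpy 2.4.6, pandas 2.3.3 and matplotlib 3.10.9 were used. The precision is limited by the number of arrays.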

Additional observations from a re-analysis of the deposited data

Results flagged for a closer look

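Defb8, a beta-defensin gene, had a wound ratio above 0 in BLT2KO skin and below 0 in WT skin. Its log2 level was 8.14 on BLT2KO_punched and 6.37 on BLT2KO, against 5.99 on WT_punched and 8.55 on WT, a difference of log2 ratios of 4.32. The carboxylesterase gene Ces1f went the other way, at 5.35 on BLT2KO_punched and 7.25 on BLT2KO, against 7.60 on WT_punched and 5.93 on WT, with a difference of -3.56. Over all settings the log2 ratio of Ces1f in BLT2KO skin was as near to 0 as -0.99. Thrsp, a gene of lipid synthesis, was at 7.01 on BLT2KO_punched and 8.65 on BLT2KO, against 9.67 on WT_punched and 7.98 on WT, with a difference of -3.33. In each case the single array pair of 1 genotype moved at least 2-fold one way and the pair of the other genotype at least 2-fold the opposite way. With 1 array in each group the difference was not tested.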

How the results depend on the processing

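The 328 higher and 181 lower genes became 191 and 58 without background correction (76.7% higher), 88 lower with an offset of 50, 107 lower with median scaling (80.8% higher) and 48 lower in the deposited processed values (82.1% higher). In the other alternatives and counts the value stayed within 1.5 times, between 220 and 449 higher and between 156 and 217 lower. Centring median scaling, added after seeing the data, gave 325 higher and 191 lower. Of the genes named, 99 of 141 past 2-fold upward and 23 of 68 past it downward stayed past it under every setting, so the lower genes rest more on the processing; the cause was not tested. The genes described above or below whose 2-fold call ended under at least 1 setting were Abca12, Aldh1a1, Alox12b, Ankrd37, Aplnr, Atf3, Aurka, Bmpr1a, Bst2, C7, Cat, Ccr2, Cd207, Cd209d, Cd80, Ces1f, Chrng, Cidec, Cldn10, Cldn23, Clec10a, Cx3cr1, Cxcr4, Dkkl1, F7, Fscn1, Gja5, Gsdmd, Hmox1, Ifit3, Il1a, Il1f8, Il31ra, Krtap19-3, Lce1d, Lce1i, Lyve1, Mefv, Myh1, Nfkbie, Plod2, Rora, Slfn2, Spink5, Timp4 and Wnt7b. Signals near background limit the ratios of dim genes. No paired analysis was possible because each group has a single array. For the same reason no array could be left out.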

Other observations

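Probes without a gene name gave 48 of 2406 detected probes at least 2-fold higher in BLT2KO_punched skin (2.00%) and 50 at least 2-fold lower (2.08%), against 3.10% and 1.71% of named genes. Complement genes had 1 of 15 members past 2-fold in each direction. Cfp, which encodes properdin, the stabiliser of the alternative pathway, was at 12.84 on BLT2KO_punched and 11.75 on BLT2KO (2.12-fold higher). C7, a subunit of the membrane attack complex, was at 5.69 on BLT2KO_punched and 7.21 on BLT2KO (log2 ratio -1.52).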
